A study of Mus musculus with 75 samples.

Results

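A group of 23 genes was near silent in resting mouse CD4 effector T cells and clearly expressed once the cells had been stimulated. The genes were chosen from the Input libraries, that is, the RNA taken before any ribosome was isolated. A gene was kept when its mean level was below 1 CPM (its count over the total of the library, scaled by 1000000) at rest in each of 2 assays and it reached at least 10 CPM in all 9 stimulated Input libraries. Of 53465 gene identifiers, 41140 met the condition at rest, 8172 met the condition after stimulation and 24 met both. The rule also left out a set of cytokine genes, none of which was among the 24, and Ak4, which was 1 of them. The difference between rest and stimulation is therefore how the genes were picked and is given as a description, without a test.

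The cells were CD4+CD25- effector T cells from spleen and lymph nodes, and the study asked, by its title, how regulatory T cells (Tregs) affect translation during CD4 T cell activation. In the RiboTag assay they came from 5 mice of the genotype B6N.129-Rpl22tm1.1Psam/J crossed with B6.Cg-Tg(Cd4-cre)1Cwi/BfluJ. There, Cre driven by the Cd4 promoter turns on a tagged ribosomal protein, and RNA precipitated with tagged ribosomes (IP) was sequenced beside the Input. Cells of each RiboTag mouse were rested in IL7, stimulated with anti-CD3/CD28 beads, or stimulated with beads in the presence of Tregs. In the SPEED assay they came from 4 mice labelled B6.SJL-PtprcaPepcb/BoyJ, which the series' design text calls C57/B6, and besides Input the libraries were made from sucrose fractions, the polysomal one (Pol) and the subpolysomal one (SubPol). SPEED cells were untreated, stimulated with beads, stimulated with beads and Tregs, or stimulated with beads and given HHT for 10 min before harvest, the last from 3 mice. The Tregs were CD4+YFP+ cells of Foxp3YFP-Cre mice. The sources used here do not give the age of the mice, the culture times, the number of Tregs, what HHT stands for, or whether Tregs were taken out again before lysis.

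A resting T cell is small and makes little protein. Signals through its antigen receptor and CD28, which the beads mimic, switch on genes that the resting cell does not transcribe and raise the number of ribosomes at work on its mRNA. An mRNA carrying several ribosomes sediments with the polysomes, while an mRNA with few or none stays in the lighter subpolysomal fractions, so the balance of Pol over SubPol reflects how heavily an mRNA is loaded. Tregs restrain the activation of other T cells.

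Library totals ran from 1658481 to 2824875 counts in RiboTag and from 1566501 to 4621104 in SPEED, so that 1 CPM at rest corresponds to only a few counts. Same-numbered libraries came from the same mouse, and the expression profile correlated best with that of its own mouse in 29 of 30 RiboTag libraries and in 31 of 44 SPEED libraries. The SPEED Input libraries of mouse 3 correlated best with mouse 4, whether untreated, with beads, with Tregs or with HHT. Those of mouse 4 correlated best with mouse 3 when untreated or with beads alone, and with their own mouse with Tregs. All Pol and SubPol libraries of mouse 3 and mouse 4 correlated best with their own mouse. Mouse 2 was less clear: with beads alone its Input, Pol and SubPol libraries correlated best with mouse 1. So did its Pol library with Tregs and its SubPol library with HHT. The Pol libraries of mouse 1 and mouse 2 with HHT correlated best with mouse 4. Statements about single SPEED mice therefore rest on the labels, and group means do not depend on them. The files give Ensembl gene identifiers without symbols, and these could not be paired with names here. The members are therefore given by identifier, their functions are not described, and no sequence is shown.

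At rest the 23 genes together amounted to 8.81 ± 3.26 CPM (SD, n = 5) in RiboTag Input and 10.8 ± 4.53 CPM (SD, n = 4) in SPEED Input. Of the single values, 60.9% in RiboTag and 58.7% in SPEED were 0. A total of 4 members had no count in any rested RiboTag Input library and 3 had none in any untreated SPEED Input library. The deepest look at any member at rest was still shallow: all members together had 95 counts in the 5 RiboTag Input libraries and 166 counts in the 4 SPEED Input libraries. Only 3 of the 23 stayed below 1 CPM in every single rested Input library, so for most members silence is a statement about the mean.

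The ribosome fractions of resting cells, which the rule did not use, were also low in these genes, but less uniformly. The rule held every resting Input mean below 1 CPM and set no such limit for the fractions, so they do not compare alike. In rested IP, 20 of 23 members had a mean below 1 CPM. In untreated cells this held for 16 of 23 in Pol and 15 of 23 in SubPol. The highest mean of a member was 2.08 CPM in IP, 2.77 CPM in Pol and 2.72 CPM in SubPol. ENSMUSG00000029516 was the member with that highest mean in rested IP. Its IP values in the 5 rested mice were 2.01, 2.17, 1.93, 3.81 and 0.474 CPM, while the Input values of the same cultures were 0, 0, 0.935, 0 and 0 CPM. It was thus detected in every rested IP library and in 1 rested Input library, from 24 counts in IP and 2 counts in Input. The SPEED assay did not show such a contrast. In untreated SPEED Input the gene gave 0.252, 0.245, 1.17 and 2.18 CPM. Its untreated means were 0.963 CPM in Input, 0.938 CPM in Pol and 0.207 CPM in SubPol.

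After stimulation the same genes summed to 984 ± 91.4 CPM (SD, n = 5) in RiboTag Input and 1052 ± 139 CPM (SD, n = 4) in SPEED Input, about 0.0984% and 0.105% of all counts. Among members with more than 3 counts at rest, the median ratio of stimulated to resting Input was 60.8 in RiboTag (13 members, 29.7 to 191) and 64.3 in SPEED (16 members, 18.7 to 173). Members with no count at rest were at least 58.4-fold to at least 215-fold higher in RiboTag and at least 150-fold to at least 284-fold higher in SPEED, taking 3 counts over the group as the floor. The bounds cover counting error only. The same ratio reached lower in the fractions, with a median of 45.2 in IP (12 members, 13.96 to 261), 40.3 in Pol (19 members, 4.59 to 225) and 34.3 in SubPol (14 members, 5.19 to 126). These fractions come from the same cultures as the Input and do not count as a repeat of it. The rule bound the Input levels and left the fractions free, and each median covers different members. Lower ratios in the fractions are therefore no result about the fractions.

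**Figure D1:**
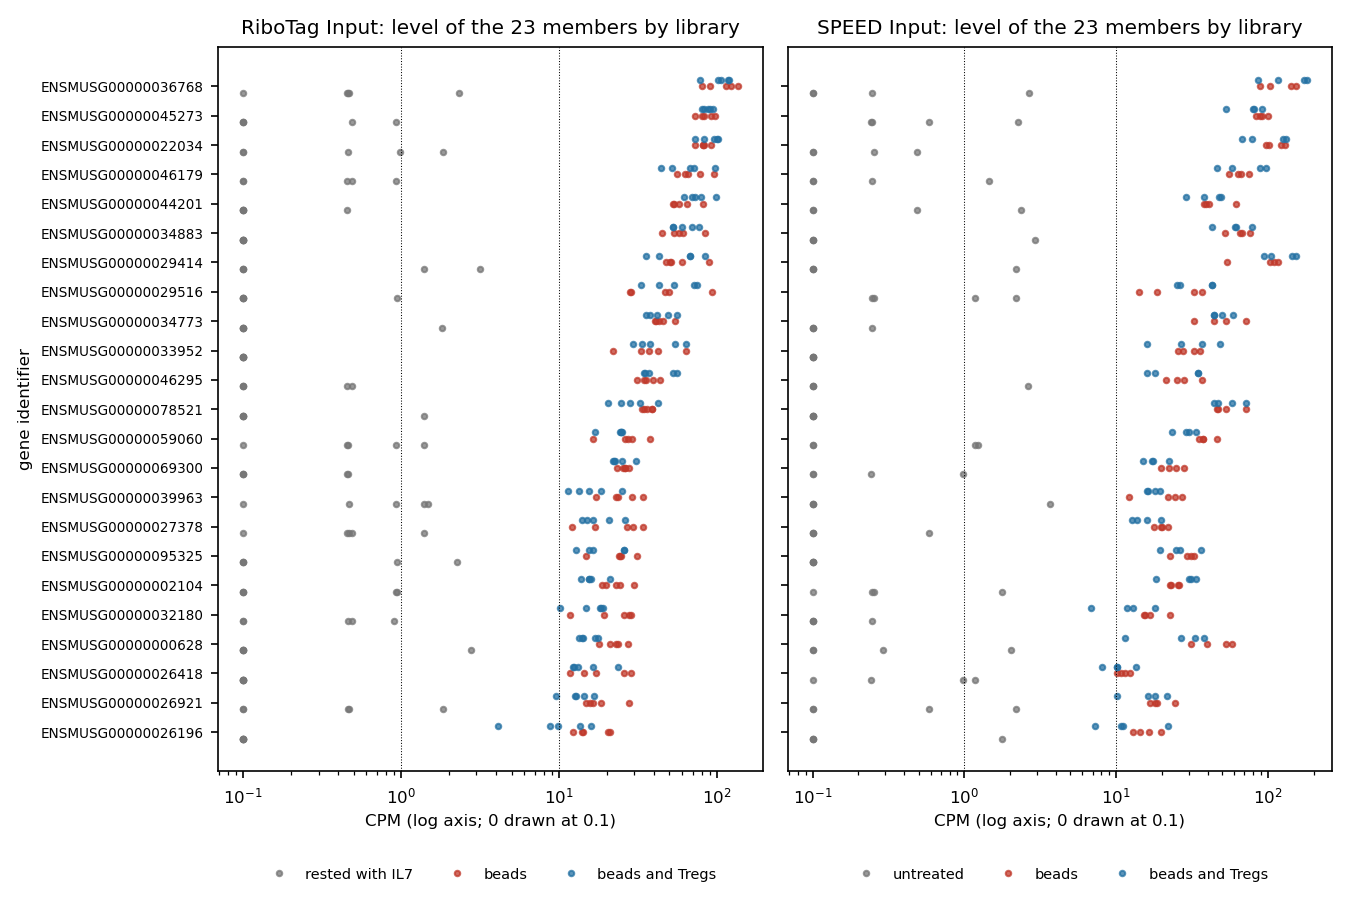
Level of each of the 23 members (rows, ordered by the mean in stimulated RiboTag Input) in every Input library, in CPM on a log axis with values of 0 drawn at 0.1; grey is rest, red is beads and blue is beads with Tregs, and dotted lines mark 1 and 10 CPM. Resting values lie at or near 0 and reach 3.67 CPM at most, all values with beads alone lie at 10.1 CPM or above, values with Tregs reach down to 4.13 CPM, and the ranges of red and blue points overlap for all but 1 gene in each assay.

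ENSMUSG00000036768 had the highest mean CPM of the members in stimulated Input, on a scale that is not corrected for gene length. In stimulated Pol and SubPol other members were higher. Its RiboTag Input values were 123, 136, 79.8, 90.5 and 115 CPM with beads, against 0.462, 0.453, 0.468, 2.31 and 0 CPM at rest. In SPEED Input it reached 153, 141, 89.0 and 104 CPM with beads, against 0, 0.245, 0 and 2.67 CPM in untreated cells. Stimulated and resting libraries were thus far apart in each assay. At the other end, ENSMUSG00000026418 only just met the rule. It gave 14.5, 11.6, 28.7, 25.7 and 17.1 CPM in stimulated RiboTag Input, where all 5 rested libraries were at 0. In SPEED Input it gave 10.8, 11.4, 12.4 and 10.1 CPM with beads. Its resting SPEED values were 0, 0.98, 1.17 and 0.242 CPM.

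The members kept a similar order in the 2 assays: across the 23 genes the mean log2 levels in stimulated Input had a Pearson r of 0.875 and a Spearman rho of 0.84. This is a correlation across genes, which are not independent replicates, and both assays entered the choice of genes. The libraries of the assays overlapped in 20 members, and 3 members were higher in every SPEED library than in every RiboTag library. A level between 10 and 50 CPM was typical, with 16 of 23 members in RiboTag and 15 of 23 in SPEED. Between mice, the median coefficient of variation of a member in stimulated Input was 24.5% for RiboTag, with a range of 6.16% to 53.2%. For SPEED it was 17.6%, with a range of 6.55% to 42.8%. In the order of levels, the libraries of neighbouring members overlapped in 22 of 22 pairs in RiboTag and in 20 of 22 pairs in SPEED.

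The edge of the group was not sharp. Just inside were ENSMUSG00000026418, with a lowest stimulated value of 10.1 CPM, and ENSMUSG00000029516, with a resting SPEED mean of 0.963 CPM. The nearest genes outside had a resting mean of 1.02 CPM in 1 case and a lowest stimulated value of 9.75 CPM in 2 cases. In all, 31 genes missed only the resting level, with a mean of 1 to 2 CPM, and 28 missed only the stimulated level, with a lowest value of 5 to 10 CPM.

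With Tregs in the culture the 23 genes were still on. In Input, 21 of 23 members in RiboTag and 20 of 23 in SPEED stayed at or above 10 CPM in every library with Tregs, and the summed level was 951 ± 114 CPM (SD, n = 5) and 1026 ± 238 CPM (SD, n = 4). In each assay 16 of 23 members had a lower mean with Tregs than with beads alone and 7 a higher one. In each assay 5 members were lower in every mouse, beside 11.8% of all tested genes in RiboTag and 14.6% in SPEED. Higher in every mouse was 1 member in each, beside 15.6% and 16.2%. The median log2 ratio of means was -0.11 in both assays, beside 0.03 for all tested genes in RiboTag and 0.05 in SPEED. No member differed 2-fold in its mean. Because the stimulated Input libraries were used to choose the genes, these Input values are a description. The rule held every Input library with beads alone at 10 CPM or more and set no such floor with Tregs. Members and all genes therefore do not compare alike in Input, and a lower level with Tregs is no result about the members. In bulk RNA, fewer cells of a type and less RNA per cell cannot be told apart. In Input, Pol and SubPol, RNA of Tregs left in the culture was not separated from that of effector cells. IP draws on tagged ribosomes, and the label of the Tregs, Foxp3YFP-Cre, does not name the tagged gene. With Tregs, IP and the SPEED fractions are therefore not like measures. How much untagged RNA the IP carries was not tested.

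The fractions allowed a test, since the rule did not read them, although they come from the same cultures. No member passed at an adjusted p of 0.05 (edgeR's quasi-likelihood test with Benjamini-Hochberg adjustment over all genes) in the comparison of beads with Tregs against beads alone. In RiboTag IP, 0 of 23 passed, beside 5.69% of the 10751 genes tested, and 2 had an unadjusted p under 0.05, beside 20.04% of all genes. In SPEED Pol, 0 of 23 passed beside 0.282% of 12428 genes, and in SPEED SubPol 0 of 23 beside 1.15%, with no member at an unadjusted p under 0.05 in either, beside 7.99% and 12.8% of all genes. DESeq2 called 1 member in IP and 0 in Pol and SubPol, beside 8.62%, 0.628% and 2.66% of all genes. The median log2 change of the members was -0.02 in IP, -0.12 in Pol and -0.18 in SubPol, beside 0.00, -0.02 and -0.01 over all genes. The precision sets what can be said. With all groups of the assay in the fit, the 95% interval excluded a fall of 2-fold or more in 17 of 23 members in IP. In Pol it did so in 15 and in SubPol in 17. For the other members a halving is within the interval.

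**Figure D2:**
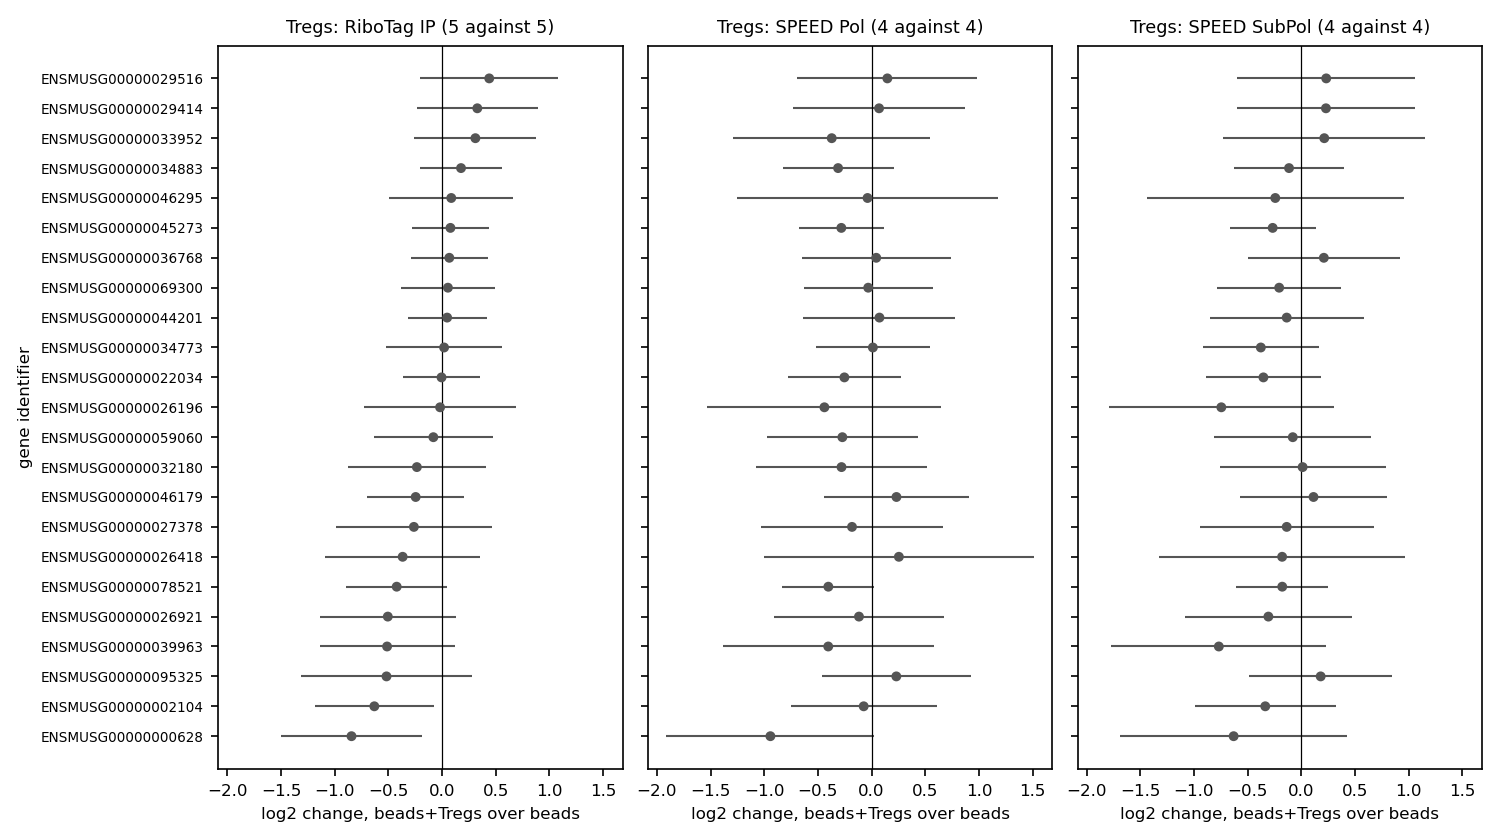
Log2 change of each of the 23 members with beads and Tregs over beads alone in RiboTag IP, SPEED Pol and SPEED SubPol; points are edgeR estimates, lines are 95% intervals, and rows are ordered by the change in IP. No point is coloured as passing an adjusted p of 0.05, and ENSMUSG00000000628 is the lowest in IP, at -0.84.

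ENSMUSG00000000628 had the lowest estimate in IP and in Pol. Its mean was below beads alone in IP, Pol and SubPol and in the Input of both assays, which the rule used. In RiboTag Input its values were 21.1, 23.8, 22.9, 27.3 and 17.8 CPM with beads and 13.9, 14.3, 16.9, 17.6 and 13.4 CPM with Tregs. The groups did not overlap there, as was the case for 2.92% of all tested genes in the same direction. In IP it gave 26.0, 31.5, 41.8, 30.6 and 20.8 CPM with beads and 15.7, 18.2, 15.9, 21.9 and 14.5 CPM with Tregs. It was lower in each of the 5 mice, although the highest library with Tregs was just above the lowest with beads. The log2 change in IP was -0.84 (SE 0.322), with an edgeR adjusted p of 0.117. DESeq2 gave an adjusted p of 0.0078, and edgeR fitted to only the groups compared gave 0.0417.

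In SPEED Pol the same gene gave 42.5, 39.3, 32.5 and 25.5 CPM with beads and 20.6, 18.8, 20.3 and 15.1 CPM with Tregs, again without overlap, beside 2.11% of all genes in that direction. The log2 change was -0.94 (SE 0.479), with an edgeR adjusted p of 0.648. In SubPol its change was -0.63 (SE 0.524, edgeR adjusted p 0.689), the libraries overlapped and it was lower in 2 of 4 mice. That value was -1.003 without mouse 2 and -0.12 without mouse 3. A second member with a low estimate in IP, ENSMUSG00000002104, had a log2 change of -0.63 (SE 0.274) there with an edgeR adjusted p of 0.179. Its SPEED Pol means were 21.4 CPM with beads and 21.0 CPM with Tregs.

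Across Input and IP in RiboTag and Input, Pol and SubPol in SPEED, 5 members had a lower mean with Tregs in all 5 and 1 a higher mean in all 5. Over the 10691 genes tested in both assays the shares were 14.6% and 19.9%. The rule set a floor for Input with beads alone and none for Input with Tregs, so the members and all genes do not compare alike here. The member higher in all 5 was ENSMUSG00000029516. It gave 46.4, 37.8, 20.1, 22.2 and 18.4 CPM in IP with beads and 42.9, 58.0, 37.5, 35.1 and 28.0 CPM with Tregs. Its log2 change was 0.44 (SE 0.315) with an edgeR adjusted p of 0.464 in IP. In Pol the change was 0.15 (SE 0.415, adjusted p 0.964) and in SubPol 0.23 (SE 0.411, adjusted p 0.878). Leaving out a mouse gave 0.05 (without mouse 3) to 0.34 (without mouse 4) in Pol and 0.12 to 0.36, without the same mice, in SubPol. The fractions of a culture share their cells, so these counts of directions are not counts of independent results.

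Mice differed from each other in the summed level of the genes. In RiboTag the summed level was highest in mouse 2 in stimulated Input (1133 CPM), stimulated IP (1083 CPM), Input with Tregs (1137 CPM) and IP with Tregs (1155 CPM). Single members did not all follow that sum. Mouse 2 held the highest value for 9 of 23 members and the lowest for 5 in stimulated Input. In stimulated IP it held the highest for 8 and the lowest for 7. With Tregs it held the highest for 8 and the lowest for 2 in Input, and the highest for 8 and the lowest for 4 in IP. In SPEED the sum was lowest in mouse 4 in Pol and SubPol, at 770 and 761 CPM with beads and 648 and 613 CPM with Tregs, and in Input with Tregs, at 730.5 CPM. In stimulated Input it was lowest in mouse 3, at 930 CPM, with mouse 4 at 936 CPM. Other mice lay between 953.7 and 1059 CPM in Pol and between 858 and 1082 CPM in SubPol over both conditions. Mouse 4 held the lowest of the 4 values for 14 of 23 members in stimulated Pol, 15 in stimulated SubPol, 18 in Pol with Tregs and 15 in SubPol with Tregs. Over all tested genes it held the lowest value in 37.2%, 29.6%, 39.4% and 34.6%. Without mouse 4 the members' median change with Tregs was -0.19 in Pol and -0.15 in SubPol, and 0 of 23 passed in each.

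**Figure D3:**
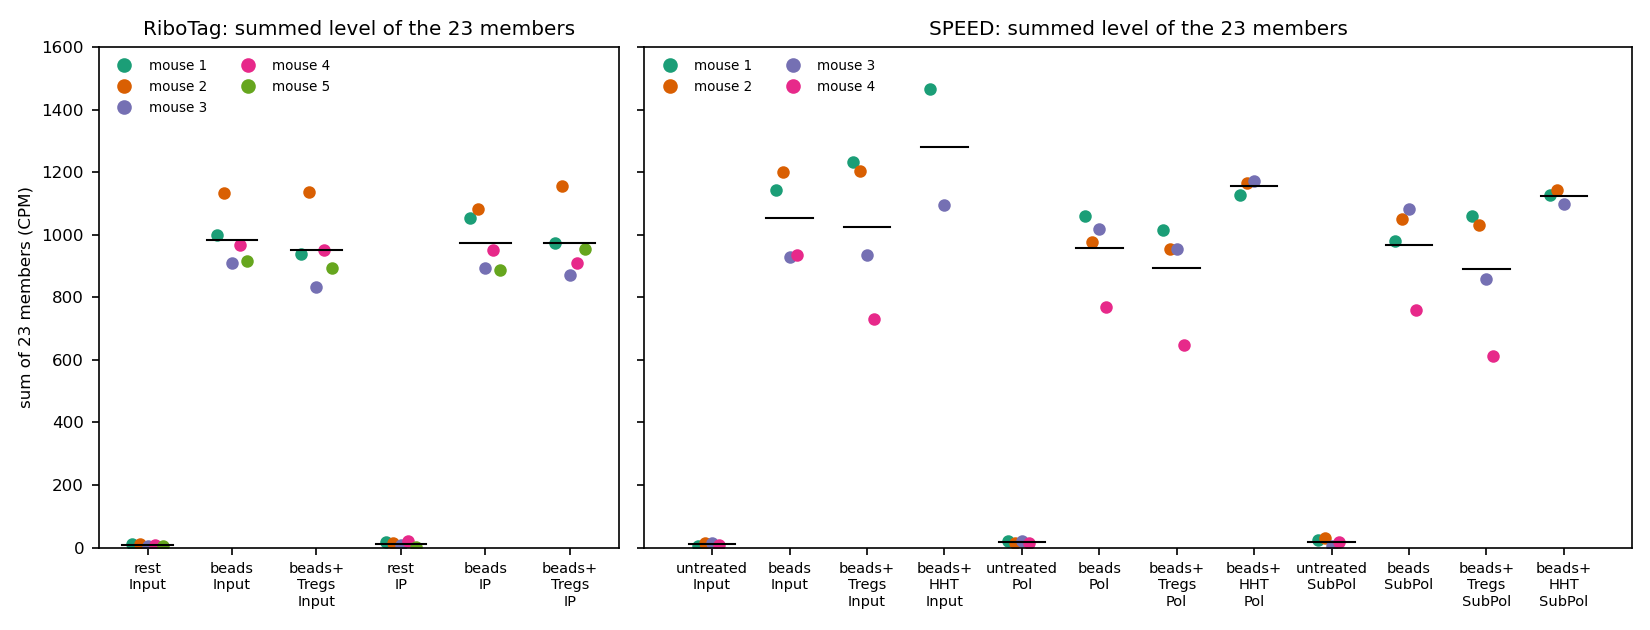
Summed level of the 23 members (CPM, axis from 0) in each library, by condition and fraction in RiboTag and SPEED; points are libraries coloured by mouse and bars are group means. Resting groups lie near 0, stimulated groups lie between 613 and 1465 CPM, and SPEED mouse 4 is the lowest point in all Pol and SubPol groups with beads alone or beads and Tregs.

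The members did not share 1 position on the ribosome gradient. In stimulated SPEED cells 6 of 23 members, or 26.1%, differed between Pol and SubPol at an edgeR adjusted p under 0.05, of which 2 were higher in Pol and 4 were higher in SubPol. That split was not stable: with the culture as a block, since Pol and SubPol come from the same culture, 5 were higher in Pol and 3 in SubPol. With the mouse as a block it was 4 and 4, and without mouse 2 it was 3 and 1. The share over all 12428 genes was 45.4%. In that background, 23.6% were higher in Pol and 21.8% higher in SubPol. All 4 Pol libraries lay above all 4 SubPol libraries in 2 members and below them in 6, beside 16.4% and 27.0% of all genes. The log2 ratios of the members ran from -1.84 to 1.47 with a median of 0.06, beside -0.01 over all genes. The count of called members was 3 without mouse 3 and also 3 without mouse 4, beside 38.3% and 38.8% of all genes. It was 11 when only the compared groups were fitted, beside 56.0% of all genes, with a median SE of the members of 0.227 in place of 0.357.

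ENSMUSG00000000628 and ENSMUSG00000059060 were the members that rose in Pol. The first gave 42.5, 39.3, 32.5 and 25.5 CPM in Pol against 17.9, 12.9, 19.3 and 6.32 CPM in SubPol, without overlap. Its log2 ratio of Pol over SubPol was 1.47 (SE 0.491, edgeR adjusted p 0.0135). Without mouse 2 the edgeR adjusted p was 0.0616 and without mouse 4 it was 0.0505. ENSMUSG00000059060 gave 50.2, 47.4, 58.9 and 43.4 CPM in Pol against 29.7, 24.9, 19.3 and 28.1 CPM in SubPol. Its log2 ratio was 1.15 (SE 0.357, edgeR adjusted p 0.0079), and it passed under all 11 settings that were run. Some passed narrowly: the edgeR adjusted p was 0.0396 without mouse 2 and 0.049 without mouse 3. Without mouse 3 the log2 ratio was 0.978.

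The clearest members on the SubPol side were ENSMUSG00000026418 and ENSMUSG00000002104. ENSMUSG00000026418 gave 10.4, 3.61, 1.99 and 3.19 CPM in Pol and 18.7, 25.7, 16.3 and 18.4 CPM in SubPol. Its log2 ratio was -1.84 (SE 0.61, edgeR adjusted p 0.0127), with an adjusted p of 0.101 without mouse 2 and 0.0672 without mouse 4. ENSMUSG00000002104 gave 23.9, 22.1, 25.1 and 14.7 CPM in Pol and 40.4, 42.6, 64.8 and 41.9 CPM in SubPol. Its log2 ratio was -0.96 (SE 0.332, edgeR adjusted p 0.0167), with an adjusted p of 0.0502 without mouse 2 and 0.0642 without mouse 3. Pol and SubPol libraries did not overlap in either gene. The other called members on that side had log2 ratios of -0.86 and -0.71.

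**Figure D4:**
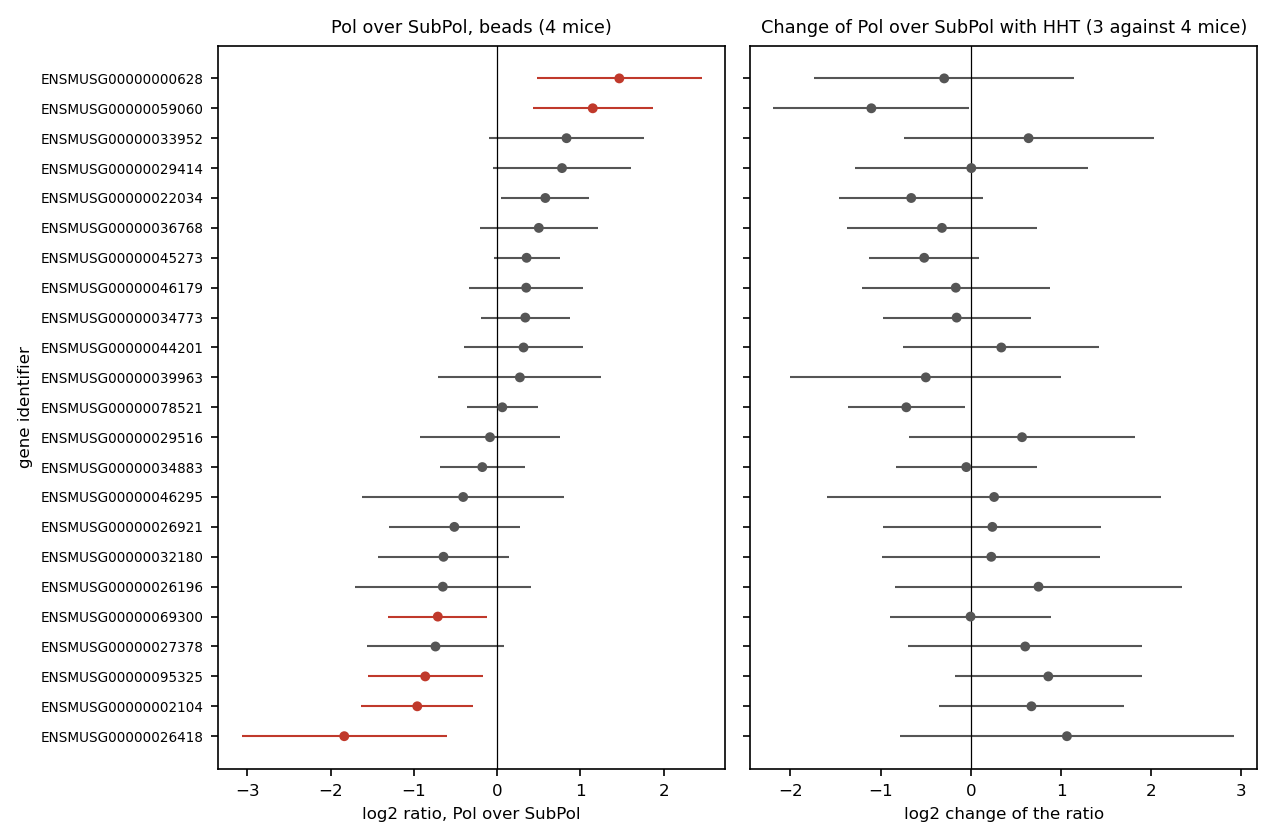
Left, log2 ratio of Pol over SubPol of each of the 23 members in stimulated SPEED cells; right, the change of that ratio with HHT, with rows in the same order. Points are edgeR estimates with 95% intervals, and red marks an adjusted p under 0.05: 6 members on the left, from -1.84 to 1.47, and none on the right.

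The balance of IP over Input in stimulated RiboTag cells had a narrower range than that of Pol over SubPol. Input is the whole from which IP is taken, while Pol and SubPol are separate parts, so the ranges do not compare alike. The former are also ratios of mean CPM and the latter edgeR estimates. The log2 ratios of means ran from -0.76 to 0.41 with a median of 0.05, and these are a description because the Input entered the rule. A total of 5 members were lower in IP than in Input in every mouse, as were 11.8% of all genes, and 4 were higher in every mouse, as were 9.95% of all genes. The lowest was ENSMUSG00000029516, with means of 29.0 CPM in IP and 49.3 CPM in Input, lower in each of the 5 mice. At rest, where the rule held the Input mean below 1 CPM, the same gene had the opposite order, with the IP mean above the Input mean. That resting order rests on 24 counts in IP and 2 in Input. Across the 23 members the IP over Input and Pol over SubPol ratios had a Pearson r of 0.123 and a Spearman rho of 0.192, and 15 of 23 had the same sign. These are values across genes of different mice and carry no test.

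Tregs did not detectably shift the members between Pol and SubPol. The change of the Pol over SubPol ratio with Tregs passed an edgeR adjusted p of 0.05 in 0 of 23 members and in 0% of 12428 genes. None of the members had an unadjusted p under 0.05, and DESeq2 also called 0. The estimates ran from -0.59 to 0.43 on the log2 scale with a median SE of 0.501. The 95% interval excluded a 2-fold fall of the ratio in 11 of 23 members, a 2-fold rise in 9 and both in 4, so for most members a 2-fold shift in at least 1 direction lies within the interval.

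With HHT the group was still on, with sums of 1155 ± 23.7 CPM in Pol and 1123 ± 22.4 CPM in SubPol (SD, n = 3 each), beside 956 ± 129 and 968 ± 145 CPM with beads alone (SD, n = 4 each). In Input the sums were 1465 CPM in mouse 1 and 1094 CPM in mouse 3. A second library labelled HHT Input of mouse 1, with a sum of 1402 CPM, was left out, and whether it comes from mouse 1 is uncertain, since no HHT Input library is labelled mouse 2. In Pol, 5 members lay above all libraries with beads alone and 2 below, beside 10.0% and 9.25% of all genes. In SubPol, 6 lay above and 5 below, beside 15.8% and 22.5%. The mice differ between these groups, since mouse 4, with the lowest sums in Pol and SubPol, gave no HHT library. These levels are given as a description, with no test.

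ENSMUSG00000000628 was again among the members that stood apart. With HHT it gave 88.2, 83.3 and 72.9 CPM in Pol and 42.7, 42.2 and 31.3 CPM in SubPol, above all 4 libraries with beads alone in each fraction. The log2 ratio of means was 1.21 in Pol and 1.43 in SubPol. In Input it gave 82.2 CPM in mouse 1 and 39.2 CPM in mouse 3 with HHT, and 58.0, 52.7, 39.4 and 31.3 CPM with beads alone. These Input values overlapped, with a log2 ratio of means of 0.42, and the Input library left out gave 68.0 CPM. The Pol over SubPol ratio of ENSMUSG00000000628 changed by -0.29 (SE 0.713, edgeR adjusted p 0.824), with a range of -0.62 without mouse 3 to -0.17 without mouse 2. ENSMUSG00000002104 gave 26.9, 32.2 and 28.2 CPM in SubPol with HHT, below all libraries with beads alone, and 17.4, 29.9 and 19.5 CPM in Pol, which overlapped them.

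The Pol over SubPol ratio changed with HHT in 0 of 23 members at an edgeR adjusted p under 0.05, beside 23.0% of all 12428 genes. At an unadjusted p under 0.05 there were 2 members, beside 34.0% of all genes. DESeq2 called 2 and the fit of only the groups compared called 4, all with a lower ratio, beside 25.3% and 29.6% of all genes in either direction. ENSMUSG00000059060 had the lowest estimate. It gave 31.9, 38.8 and 46.7 CPM in Pol and 43.1, 38.0 and 41.2 CPM in SubPol with HHT, where with beads alone every Pol library was above every SubPol library. The change of its log2 ratio was -1.10 (SE 0.536, edgeR adjusted p 0.141), with an adjusted p of 0.00497 by DESeq2 and 0.00442 with only the groups compared. The members' estimates had a median SE of 0.536, and the interval excluded a 2-fold change in both directions in 3 of 23.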

How the data were processed

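For each assay the authors deposited a single table of raw counts, whole numbers of reads per Ensembl gene identifier. Per the submitters' processing notes the build was GRCm38; the tools named there are SAMtools 1.2, FastQC 0.11.3, Picard 1.134 and HTSeq 0.4.1. Libraries were made with SMART-Seq v4 and NexteraXT, per the labels' protocols. These kits keep no strand information, so reads of a gene and of an antisense partner cannot be separated. The RiboTag table has 16 more columns that fit no labelled sample, and these were not used. Of a pair of HHT Input libraries with the same title and mouse, the later 1 was left out.

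CPM is a count over its library total. Tests used edgeR 4.0.16 in R 4.3.3 (filterByExpr with minimum count 10 and total 15, TMM, a robust quasi-likelihood model with every group of the assay, Benjamini-Hochberg adjustment over all genes at 0.05, two-sided). All 23 members passed the filter in both assays. Ratios of fractions were contrasts in that model, and an SE is the log2 change divided by the square root of F. Since values are relative to the library total, differences in the amount of RNA per cell or per fraction cannot be seen. Alternatives were other size factors, DESeq2 1.42.0, no filter, only the groups compared, the mouse or culture as a block, and leaving out each mouse. The fits were tested on simulated counts.

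The mouse numbers pair samples, per the labels. The deviations of 2 libraries of a mouse from their group means had an average correlation of 0.149 for RiboTag mice (-0.029 to 0.416) and 0.038 for SPEED mice (-0.075 to 0.196). Whether cultures of a mouse were separate is stated only by condition. The tests measure the spread between the libraries of a group, which are labelled as different mice, pooled over all groups of the assay. The main model has no term for mouse or culture. It therefore treats libraries of the same mouse, and Pol and SubPol of the same culture, as independent.

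The members, lists and comparisons were chosen with earlier results of these data known. The rule for named members took those with the highest level, those past the threshold with the largest changes in each direction, and those nearest to the limits of the selection. Since no table pairs the identifiers with names, only 6 of these were printed, which were chosen after their values were seen, as was naming them in comparisons they did not pass. The planned gene lists, cell type markers and promoter motifs need gene symbols, which could not be matched to these identifiers here, so the labelled cell type was not checked against its markers.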

Additional observations from a re-analysis of the deposited data

Results flagged for a closer look

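A total of 75 sets of 4 or 5 libraries were checked for a single value far from the others, namely the summed level of the members per group and the levels of the 6 members named here. Chance marks about 1 in 20 such sets, and 4 were found. The summed level in SPEED Pol with Tregs was 648.5 CPM in mouse 4, against 953.7 to 1014 CPM in the other mice. ENSMUSG00000036768 stood at 145.3 CPM in RiboTag IP with Tregs in mouse 2, against 102 to 111 CPM. ENSMUSG00000059060 stood at 16.9 CPM in RiboTag Input with Tregs in mouse 3, against 24.3 to 25.1 CPM. ENSMUSG00000002104 stood at 64.8 CPM in stimulated SPEED SubPol in mouse 3, against 40.4 to 42.6 CPM, and its edgeR adjusted p for Pol over SubPol was 0.0642 without that mouse.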

How the results depend on the processing

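The number of members depended on the levels of the rule: 7 were left with a resting mean below 0.5 CPM, 11 with at least 20 CPM when stimulated, and 3 when every rested library had to be below 1 CPM. Leaving out all libraries of 1 mouse number gave 24 to 28 genes, of which 20 to 22 were among the 23. For numbers 1 to 4 this takes a mouse from each assay at once. For Pol over SubPol in stimulated cells the 6 calls became 11 with only the groups compared, and 3 to 4 with a mouse left out. For the change with HHT the 0 calls became 2 by DESeq2, 4 with only the groups compared and 1 with the culture as a block. For Tregs in IP the 0 calls became 1 by DESeq2 and 1 with only the groups compared. With the replicate block (the mouse as a block) the calls were 8 for Pol over SubPol in stimulated cells and 0 in each of the other 5 comparisons. The block moved no count of called members by more than 1.5 times. Over all genes the count of calls moved more for Tregs. In IP it was 612, and 1077 with the block, 927 by DESeq2, 399 with no filter and 221 to 445 with a mouse left out. In Pol it was 35, with 72, 78 by DESeq2 and 3 to 20, and in SubPol it was 143, with 245 under the block, 331 by DESeq2, 27 with only the groups compared and 19 to 80. For the change with HHT it was 2860, and 1664 to 2418 with a mouse left out. The median Input change with Tregs ran from -0.17 to -0.04 in RiboTag and from -0.24 to -0.08 in SPEED with a mouse left out. Of 126 alternative values for named members, 116 kept their direction and their side of the threshold, 6 no longer passed and 4 now passed. The cause of these changes was not tested. Depth limits the resting values, where 1 count is worth about as much as the differences between members.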

Other observations

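A table of cell cycle marker genes that is distributed with the scran package (1.30.0) lists mouse genes by Ensembl identifier and could be matched to the data. It was used after the values had been seen, so its counts are a description. It holds pairs of genes for G1, S and G2M, and a gene on either side of any pair was counted, so phases and directions are mixed. Of its 667 genes, 7 are among the 23 members (30.4%). Of the genes tested, 5.83% in RiboTag and 5.13% in SPEED are in it. The tested genes were not chosen for a rise on stimulation as the members were, so these shares do not compare alike. ENSMUSG00000029516 is 1 of these 7. The median log2 change with Tregs of the 7 was 0.05 in IP, 0.07 in Pol and 0.11 in SubPol, and that of the other 16 was -0.25, -0.15 and -0.19. Over all genes of the table that were tested, it was -0.04, -0.07 and -0.05. The Pol over SubPol log2 ratio in stimulated cells had a median of 0.35 in the 7, -0.29 in the 16 and 0.35 over the table's genes. None of these differences between lists was tested.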
